A study of Mus musculus with 4 samples.

Results

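The cells described here are Myog-high differentiating myocytes, muscle precursors caught between proliferation and fusion, in single-cell RNA libraries of skeletal muscle from a mouse model of Duchenne muscular dystrophy (DMD). Members were chosen by their own UMI counts, in other words by measured values. A cell was a member if it held at least 10 unique molecules (UMIs) of Myog, more Myog than Pax7 plus Myf5 UMIs, and at most 2 UMIs of Mki67, Top2a and Cenpf together. Under this rule 132 of the 3318 cells kept from the satellite cell isolation kit libraries were members. They were 69 of 1907 cells of the LNP-CRISPR library and 63 of 1411 cells of the vehicle library. The whole series held 5674 kept cells among 6512 barcodes in 4 libraries. The other 2 libraries, labelled bulk, held 4 members among 1152 kept cells after LNP-CRISPR and 5 among 1204 after vehicle, and were used no further.

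The groups compared were kit-isolated cells of DMD-model muscle after LNP-CRISPR, lipid nanoparticles that carry a CRISPR editor, and the same isolation after vehicle. The series asked which muscle cells the particles reach. Each group was 1 library. The labels give no number of animals, disease allele, age, muscle, dose, time after injection or CRISPR target, so treatment, animal and preparation cannot be told apart. No p-value was computed, and all intervals are 95% intervals that cover counting error only. Levels are given as CPM, the UMIs of a gene per 1000000 UMIs of nuclear genes. They were pooled across a set's cells within 1 library unless a value per cell is named. The chemistry counts the 3' ends of transcripts, so levels were compared between cells and not between genes.

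Satellite cells, the stem cells of muscle, express Pax7 and Myf5. When activated they divide, switch on Myod1 and then Myog, leave the cell cycle for good and build the contractile apparatus. Myog encodes myogenin, a basic helix-loop-helix factor that binds E boxes and turns on differentiation genes. Myoblast fusion needs 2 muscle-specific membrane proteins, myomaker (Mymk) and myomerger (Mymx), and joins these cells into multinucleated fibres. In dystrophic muscle this sequence repeats as fibres are lost and replaced.

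Promoter windows of RefSeq genes, 250 bases before to 50 bases after the transcript start, were looked up for 11 genes of the programme, and 8 matched. The sequences of Myog itself, of the acetylcholine receptor subunits Chrng and Chrna1, and of embryonic myosin Myh3 are shown, since the levels of these genes in members carry the description that follows. Capitals mark E boxes, CANNTG, which reads the same on both strands. Positions are the first base of each box from the transcript start, on GRCm38.p6. Myog lies at chr1:134289754-134290053 on the plus strand, with boxes at -138 and -12. Chrng lies at chr1:87205561-87205860 on the plus strand, with boxes at -155, -132 and -75. Chrna1 lies at chr2:73580289-73580588 on the minus strand, with boxes at -92, -73 and -44. Myh3 lies at chr11:67078050-67078349 on the plus strand, with a box at -191.
Myog: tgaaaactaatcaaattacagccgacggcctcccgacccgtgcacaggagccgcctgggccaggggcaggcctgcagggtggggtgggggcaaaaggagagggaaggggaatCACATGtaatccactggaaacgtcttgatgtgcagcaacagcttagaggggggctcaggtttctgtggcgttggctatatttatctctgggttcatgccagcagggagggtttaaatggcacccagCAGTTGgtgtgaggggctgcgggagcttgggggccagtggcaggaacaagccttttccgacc
Chrng: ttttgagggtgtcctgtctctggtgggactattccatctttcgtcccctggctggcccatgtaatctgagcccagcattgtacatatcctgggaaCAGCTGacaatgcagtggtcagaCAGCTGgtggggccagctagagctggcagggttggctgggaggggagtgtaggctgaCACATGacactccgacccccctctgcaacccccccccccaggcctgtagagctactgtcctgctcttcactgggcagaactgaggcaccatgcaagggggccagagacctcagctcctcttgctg
Chrna1: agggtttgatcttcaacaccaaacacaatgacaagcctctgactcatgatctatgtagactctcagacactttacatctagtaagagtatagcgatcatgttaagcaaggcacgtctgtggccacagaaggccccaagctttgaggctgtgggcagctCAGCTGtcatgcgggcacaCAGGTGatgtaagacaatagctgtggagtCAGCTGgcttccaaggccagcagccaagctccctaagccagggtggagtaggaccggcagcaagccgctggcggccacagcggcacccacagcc
Myh3: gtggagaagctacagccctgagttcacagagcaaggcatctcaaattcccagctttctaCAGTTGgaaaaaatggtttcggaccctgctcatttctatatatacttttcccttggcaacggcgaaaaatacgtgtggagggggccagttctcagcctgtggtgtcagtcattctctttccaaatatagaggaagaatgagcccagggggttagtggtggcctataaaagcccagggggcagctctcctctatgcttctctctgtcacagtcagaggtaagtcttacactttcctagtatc

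E boxes are common: 72.3% of 32851 promoter windows held at least 1, 39.6% held 2 or more and 17.6% held 3 or more. The form CAGCTG, which is a subset of CANNTG, stood in 16.3% of windows. It was present 2 times in the windows of both Chrng and Chrna1, against 1.90% of all windows with 2 or more. The windows of Myog and Myh3 held none. Of the matched windows not shown, those of Actc1 and Myl4 held none, Klhl41 held 1, and those of Tnnt2 held 2 and 0. A match describes the letters only.

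The libraries held 40666916 UMIs (LNP-CRISPR) and 28597422 UMIs (vehicle) over all barcodes. Members held a median of 32228 nuclear-encoded UMIs per cell after LNP-CRISPR (5595 to 137510) and 25882 after vehicle (6284 to 98803). Their median mitochondrial share of UMIs was 5.90% after LNP-CRISPR and 6.37% after vehicle. The kit libraries shared 1 cell barcode, and no member barcode was shared. For comparison, cycling myogenic cells (at least 10 UMIs of the 3 cycle genes and at least 3 of Pax7, Myf5, Myod1 and Myog) numbered 240 after LNP-CRISPR and 159 after vehicle. Stem cells (at least 3 Pax7 or Myf5 UMIs, more than Myog, and at most 2 cycle UMIs) numbered 157 after LNP-CRISPR and 168 after vehicle. Glial cells (at least 10 UMIs of glial markers), which should lack muscle genes and so show free RNA, numbered 401 after LNP-CRISPR and 239 after vehicle.

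Members made up 3.62% (2.83 to 4.56) of kept cells after LNP-CRISPR and 4.46% (3.45 to 5.68) after vehicle, a ratio of 0.810 (0.568 to 1.16) whose interval spans 1. The Myog limit cut a sparse tail. After LNP-CRISPR 4 members held 10 to 14 Myog UMIs and 6 otherwise eligible cells held 5 to 9. After vehicle 5 members held 10 to 14 and 8 otherwise eligible cells held 5 to 9. The cycle limit cut more densely. In the LNP-CRISPR library 8 members held 2 cycle UMIs and 15 cells were left out with 3 to 5. In the vehicle library 7 members held 2 and 6 cells were left out with 3 to 5. In all, 52 of 125 cells with at least 10 Myog UMIs failed the cycle limit after LNP-CRISPR and 34 of 98 after vehicle.

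Myog, which chose the cells, was spread widely among them. Per cell it was 238, 2872 and 6438 CPM (lowest, median, highest) after LNP-CRISPR and 135, 2872 and 7111 CPM after vehicle. The distributions overlapped throughout and the summed levels were 2911 CPM after LNP-CRISPR and 2931 CPM after vehicle. Mymk per cell was 0, 761 and 2295 CPM after LNP-CRISPR, against 0, 513 and 2975 CPM after vehicle, and 65 of 69 LNP-CRISPR and 60 of 63 vehicle members held at least 1 UMI. Tnnt2, the cardiac-type troponin T of immature muscle, was 0, 658 and 13107 CPM per cell after LNP-CRISPR, against 0, 694 and 5514 CPM after vehicle. Myh3, embryonic myosin heavy chain, was 0, 23.8 and 5763 CPM per cell after LNP-CRISPR, against 0, 0 and 12943 CPM after vehicle. Myh3 was detected in 38 of 69 LNP-CRISPR and 31 of 63 vehicle members, and Tnnt2 in 63 of 69 and 54 of 63. The name thus fits nearly all members by Mymk, most by Tnnt2 and a smaller share by Myh3.

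**Figure D1:**
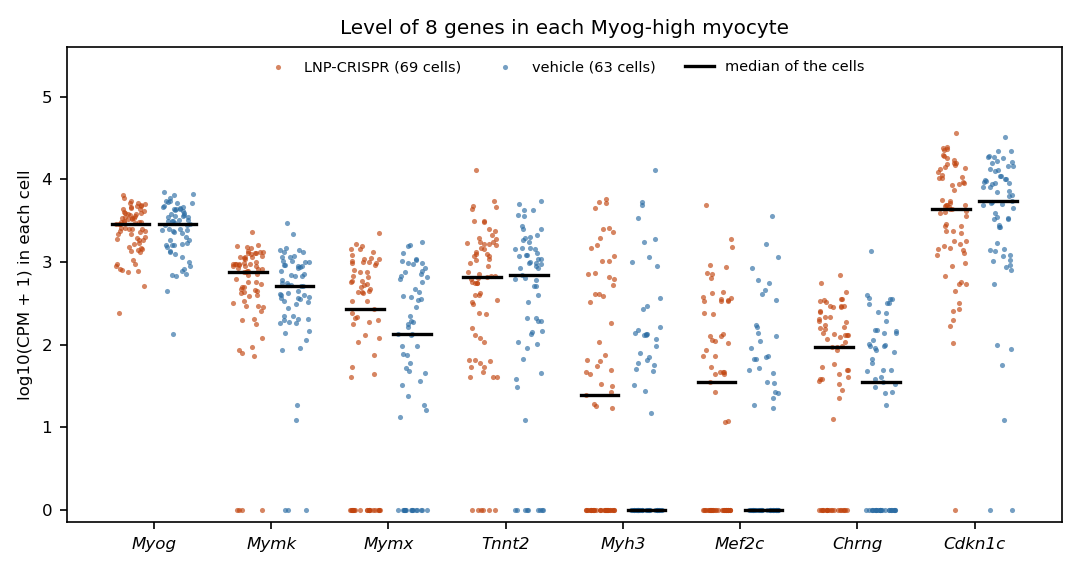
Level per cell of 8 genes in members, as log10(CPM + 1), with each point a cell, bars at the medians, and LNP-CRISPR left of vehicle. Every member holds Myog, nearly all hold Mymk and Cdkn1c, and Myh3 and Mef2c are at 0 in many members of both libraries.

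To compare detection at equal depth, each cell was thinned to 5000 UMIs. After LNP-CRISPR Mymk was then detected in 85.5% of members, 7.5% of cycling, 4.76% of stem and 1.30% of glial cells. After vehicle it was detected in 74.6% of members, 8.18% of cycling, 2.61% of stem and 2.55% of glial cells, so members stood far above the free RNA level. Mymx was detected in 58.0% of members and 1.30% of glial cells after LNP-CRISPR, and in 60.3% and 1.27% after vehicle. Myh3 was detected in 40.6% of members and 2.28% of glial cells after LNP-CRISPR, and in 31.7% and 1.91% after vehicle. Acta1, skeletal actin, was detected in 88.4% of members after LNP-CRISPR and 90.5% after vehicle, but also in 71.7% and 86.6% of the glial cells of the same libraries. Its detection in a cell therefore said little here. Myog, Mymk, Mymx, Myh3 and Tnnt2 were largely free of that background.

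Markers of other cell types were checked over whole lists. Immune markers summed to 4.86 CPM after LNP-CRISPR, with 6 of 12 at 0, and to 1.26 CPM after vehicle, with 10 of 12 at 0; Ptprc, Csf1r and C1qa were at 0 in both. Endothelial markers summed to 19.1 CPM after LNP-CRISPR, with 3 of 7 at 0, and to 15.6 CPM after vehicle, with 4 of 7 at 0. Cldn5 made up 92.1% of that sum after LNP-CRISPR and 83.8% after vehicle. Stromal markers summed to 277 CPM after LNP-CRISPR, with 4 of 10 at 0, and to 226 CPM after vehicle, with 3 of 10 at 0. They were mainly Scx, at 198 CPM after LNP-CRISPR and 141 CPM after vehicle, and Col3a1, at 70.2 CPM after LNP-CRISPR and 76.3 CPM after vehicle. Glial markers summed to 423 CPM in members, against 65873 CPM in glial cells, after LNP-CRISPR, and to 346 CPM, against 64315 CPM, after vehicle, with 1 and 2 of 9 at 0 in members of those libraries. Ncam1, which muscle precursors also express, made up 84.9% of the members' sum after LNP-CRISPR and 83.4% after vehicle. Mural markers summed to 1969 CPM after LNP-CRISPR, with 2 of 9 at 0, and to 2067 CPM after vehicle, with 1 of 9 at 0. Acta2, smooth muscle actin, made up 96.5% of that sum after LNP-CRISPR and 97.2% after vehicle. The 4 haemoglobin genes summed to 27.0 CPM after LNP-CRISPR and 3.79 CPM after vehicle. Doublets were not called or removed, and the part of these transcripts in the results was not tested.

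Members were set against cycling and stem cells of their own library. The rule chose them by Myog, stem and cycle genes, so what follows describes the programme and tests nothing. A gene was counted as higher or lower when it differed at least 1.5-fold, in the same direction, in both libraries. Over cycling cells 15.2% of 11203 measured genes were higher and 19% lower. Over stem cells 14.3% of 9799 genes were higher and 20.9% lower.

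Among transcription factors, 7 of 15 measured were higher in members than in cycling cells and 2 lower, and 8 were higher and 2 lower than in stem cells. Mef2c, a partner of the myogenic factors on muscle promoters, was 235 CPM in members of the LNP-CRISPR library, against 6.97 in cycling and 6.93 in stem cells. In the vehicle library it was 314 CPM in members, against 6.88 and 7.68, so members stood above cycling cells 33.7-fold after LNP-CRISPR and 45.7-fold after vehicle. The vehicle level rested partly on 1 cell with 357 of 745 UMIs. Without the highest cell of each library Mef2c was 202 CPM after LNP-CRISPR and 171 CPM after vehicle. Mef2a was 746 CPM in members, against 152 and 129 after LNP-CRISPR, and 619 CPM, against 155 and 113, after vehicle. Tead4, a Hippo pathway factor active in muscle differentiation, was 67.2 CPM in members, against 8.66 and 4.16 after LNP-CRISPR, and 44.7 CPM, against 10.4 and 0.731, after vehicle. Id3, an inhibitor of helix-loop-helix factors, ran the other way. It was 39.2 CPM in members, against 96.5 in cycling and 404 in stem cells after LNP-CRISPR, and 53.5 CPM, against 106 and 545, after vehicle.

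The fusion list split. The muscle-specific fusogens were far higher in members, while most adhesion and membrane genes of the list were not, and its median log2 ratio over cycling cells was 0.27 after LNP-CRISPR and 0.21 after vehicle. Of 25 measured genes 8 were higher and 4 lower than in cycling cells, and 8 were higher and 8 lower than in stem cells. Mymk was 803 CPM in members, against 32.4 in cycling and 7.27 in stem cells after LNP-CRISPR, and 668 CPM, against 40.4 and 5.49, after vehicle. Mymx was 657 CPM in members, against 30.7 and 12.5 after LNP-CRISPR, and 445 CPM, against 30.4 and 9.14, after vehicle. In Mymk members thus stood above cycling cells 24.8-fold (22.6 to 27.3) after LNP-CRISPR and 16.5-fold (14.9 to 18.3) after vehicle. In Mymx they stood 21.4-fold (19.4 to 23.6) above after LNP-CRISPR and 14.6-fold (13 to 16.5) after vehicle.

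Other genes with roles in fusion or membrane remodelling were also higher in members. Cav3, muscle caveolin, was 177 CPM in members, against 6.65 in cycling and 11.1 in stem cells after LNP-CRISPR, and 155 CPM, against 6.05 and 5.49, after vehicle. Dysf, the membrane repair protein dysferlin, was 19.4 CPM in members, against 0.816 and 1.04 after LNP-CRISPR, and 22.3 CPM, against 0.746 and 1.83, after vehicle. Elmo1, an activator of Rac signalling, was 31.6 CPM, against 1.0 and 4.85 after LNP-CRISPR, and 40.9 CPM, against 0.994 and 1.83, after vehicle. The cell adhesion gene Jam3 was above cycling cells 4.22-fold after LNP-CRISPR and 4.8-fold after vehicle. Kirrel, Anxa1, Anxa5 and Dock1 were lower than in cycling cells: Kirrel, a nephrin-family adhesion molecule, was 0.186 times the cycling level after LNP-CRISPR and 0.194 times after vehicle.

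Both fusogens were detected in 47 of 69 members after LNP-CRISPR and 45 of 63 after vehicle. After LNP-CRISPR 18 members held Mymk without Mymx, 1 held Mymx without Mymk and 3 held neither. After vehicle 15 members held Mymk without Mymx, 2 held Mymx without Mymk and 1 held neither. Mymk without Myh3 was found in 28 members after LNP-CRISPR and 29 after vehicle, and Myh3 without Mymk in 1 after LNP-CRISPR and 0 after vehicle. Mymk detection was therefore the wider of these in both libraries, with the caveat that a missing UMI does not show a missing transcript. On GRCm38, in GENCODE M21, Mymk lies at chr2:27061636-27072179 on the minus strand and Mymx at chr17:45600971-45602102 on the minus strand.

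Genes of cell cycle exit included the CDK inhibitors Cdkn1c (p57) and Cdkn1a (p21), both higher in members than in cycling and stem cells. Cdkn1c per cell was 0, 4397 and 36081 CPM (lowest, median, highest) after LNP-CRISPR, against 0, 5491 and 32489 CPM after vehicle. It was detected in 68 of 69 LNP-CRISPR and 61 of 63 vehicle members. Thinned to 5000 UMIs, it was found in 95.7% of members and 50.5% of glial cells after LNP-CRISPR, and in 92.1% and 46.5% after vehicle, so detection alone said little for this gene too. Its summed level was 4760 CPM, against 192 in cycling and 642 in stem cells after LNP-CRISPR, and 5825 CPM, against 302 and 566, after vehicle. It stood above cycling cells 24.9-fold after LNP-CRISPR and 19.3-fold after vehicle. Cdkn1a was 929 CPM in members, against 170 and 158 after LNP-CRISPR, and 732 CPM, against 183 and 155, after vehicle. Glial cells held more Cdkn1a than members, 1362 CPM after LNP-CRISPR and 1427 CPM after vehicle. The retinoblastoma gene Rb1, which holds E2F genes silent, was 139 CPM in members, against 29.8 in cycling and 27.0 in stem cells after LNP-CRISPR, and 159 CPM, against 33.8 and 23.0, after vehicle. In the list of 11, 6 genes were higher than in cycling cells and 2, the INK4 inhibitors Cdkn2c and Cdkn2d, were lower. Against stem cells 4 of the 11 were higher and 5 lower, with median log2 ratios of -0.25 after LNP-CRISPR and -0.22 after vehicle. All 24 other cell cycle genes measured were lower than in cycling cells, with median log2 ratios of -3.56 after LNP-CRISPR and -3.33 after vehicle. Cdk1, the mitotic kinase, was 3.95 CPM in members, against 209 CPM in cycling cells after LNP-CRISPR, and 9.27 CPM, against 258 CPM, after vehicle. Against stem cells the cell cycle genes showed no common direction: of 17, Birc5, Ccnb2, Mcm2 and Ube2c were higher and Cks2 lower.

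Of the 17 lists, the embryonic contractile genes had the highest medians. All 10 measured embryonic or cardiac-type sarcomere genes were higher than in cycling cells and than in stem cells, with median log2 ratios after LNP-CRISPR of 5.39 over cycling and 6.29 over stem cells, and after vehicle of 5.59 and 6.97. Tnnt2 was 1583 CPM in members, against 47.9 in cycling and 21.8 in stem cells after LNP-CRISPR, and 1356 CPM, against 38.3 and 9.14, after vehicle. Myh3 was 887 CPM, against 20.8 and 4.85 after LNP-CRISPR, and 897 CPM, against 8.12 and 3.29, after vehicle. Cardiac actin, Actc1, was 1753 CPM, against 39.5 and 20.4 after LNP-CRISPR, and 2264 CPM, against 9.28 and 11.3, after vehicle. Myl4, an embryonic and atrial myosin light chain, was 841 CPM in members after LNP-CRISPR and 1090 CPM after vehicle, and at most 19.6 CPM in the other myogenic sets of either library; 1 vehicle member held 914 of 2586 UMIs.

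Genes of the mature sarcomere were also higher in members, 29 of 30 over cycling and 25 of 30 over stem cells, with median log2 ratios over cycling cells of 3.84 after LNP-CRISPR and 3.71 after vehicle. Titin, Ttn, the molecular spring of the sarcomere, was 4117 CPM, against 565 in cycling and 389 in stem cells after LNP-CRISPR, and 4151 CPM, against 669 and 367, after vehicle. Klhl41, which stabilises the thin filament, was 457 CPM, against 13.1 and 2.42 after LNP-CRISPR, and 392 CPM, against 16.8 and 3.29, after vehicle. Acta1 was 5322 CPM in members, against 151 and 269 after LNP-CRISPR, and 4785 CPM, against 151 and 248, after vehicle. Adult fast myosin Myh2 had no UMI in members of either library. Outside the lists, the genes highest in members over both other sets included Mypn (titin-associated), Lmod2 (an actin nucleator), the muscle kinase gene Mylk4, the ubiquitin ligase gene Trim63 (MuRF1) and the zinc finger gene Casz1. Lmod2 was 247 CPM in members after LNP-CRISPR and 357 CPM after vehicle. Mylk4 was 102 CPM in members, against 0.941 in cycling and 0.346 in stem cells after LNP-CRISPR, and 113 CPM, against 0.580 and 0, after vehicle. Trim63 was 83.9 CPM in members after LNP-CRISPR and 93.1 CPM after vehicle.

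**Figure D2:**
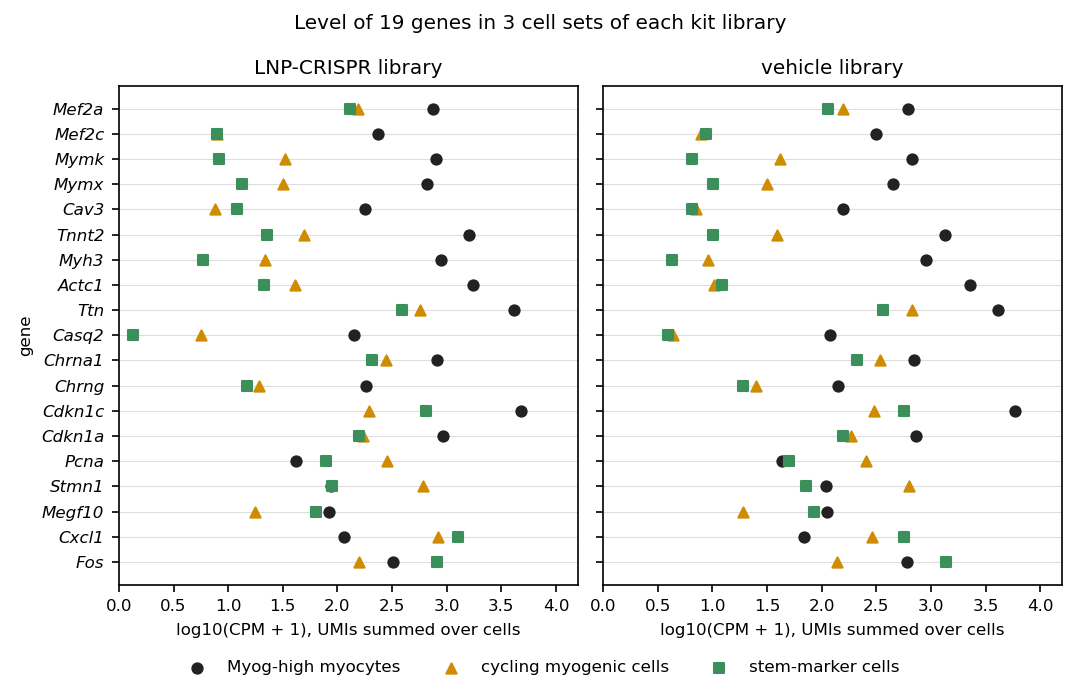
Levels of 19 genes, as log10(CPM + 1), in members, cycling cells and stem cells of each library. Fusogens, embryonic sarcomere genes and the CDK inhibitors Cdkn1c and Cdkn1a are highest in members of both libraries. The cycle genes Pcna and Stmn1 are highest in cycling cells.

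Genes that couple excitation to contraction were higher in members. All 19 measured genes were higher in members than in cycling cells, and 17 of 20 were higher than in stem cells. Casq2, the cardiac-type calcium store protein calsequestrin, was 140 CPM, against 4.64 and 0.346 after LNP-CRISPR, and 117 CPM, against 3.40 and 2.93, after vehicle. Ryr1, the calcium release channel, was 99.4 CPM in members, against 6.40 in cycling cells after LNP-CRISPR, and 103 CPM, against 9.69, after vehicle. Bin1, which shapes T-tubules, was 781 CPM in members, against 205 in cycling and 148 in stem cells after LNP-CRISPR, and 736 CPM, against 237 and 145, after vehicle.

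Among genes of the neuromuscular junction 7 of 9 were higher than in cycling cells and 5 of 8 higher than in stem cells. Chrng, the fetal gamma subunit of the acetylcholine receptor, was 0, 92.7 and 698 CPM per cell after LNP-CRISPR, against 0, 34.3 and 1352 CPM after vehicle. Summed, it was 183 CPM, against 18.3 in cycling and 13.9 in stem cells after LNP-CRISPR, and 141 CPM, against 24.1 and 17.9, after vehicle. Its adult counterpart Chrne had 1 UMI in members after LNP-CRISPR and 0 after vehicle. Chrna1, the ligand-binding alpha subunit, was found in every member, at 37.8, 556 and 2322 CPM per cell after LNP-CRISPR, against 39.1, 434 and 4134 CPM after vehicle.

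The dystrophin complex was mixed: 8 of 14 genes were higher than in cycling cells and 3 (Dtnb, Sgce and Sntb2) lower, and 5 were higher and 7 lower than in stem cells. Dmd itself, dystrophin, was 24.6 CPM in members, against 8.22 in cycling and 76.5 in stem cells after LNP-CRISPR, and 34.1 CPM, against 9.11 and 99.1, after vehicle. The ratio of members to stem cells was 0.322 (0.246 to 0.417) after LNP-CRISPR and 0.344 (0.265 to 0.443) after vehicle. A 3' count does not show whether the transcript was mutant, edited or intact. Utrophin, Utrn, was 89.0 CPM in members, against 73.2 and 160.4 after LNP-CRISPR, and 94.4 CPM, against 67.0 and 151, after vehicle.

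Stem cell genes were low in members, as the rule on Pax7 and Myf5 favours: 16 of 17 others were lower than in stem cells. Even so Megf10, a receptor of satellite cells, was 82.1 CPM in members, against 62.7 CPM in stem cells after LNP-CRISPR, and 112 CPM, against 84.8 CPM, after vehicle. Metabolic genes of muscle were higher in 10 of 11 over stem cells and none was lower. Pgam2, the muscle phosphoglycerate mutase, was 106 CPM in members, against 5.02 in cycling and 14.9 in stem cells after LNP-CRISPR, and 133 CPM, against 7.37 and 16.8, after vehicle.

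NF-kB inflammation genes were often lower in members than in cycling cells and mostly lower than in stem cells. Of those measured, 0 were higher and 11 of 21 lower than in cycling cells, and 0 were higher and 15 of 18 lower than in stem cells. The inhibitor Nfkbia, itself an NF-kB target, was 273 CPM in members, against 961 in cycling and 1039 in stem cells after LNP-CRISPR, and 181 CPM, against 442 and 671, after vehicle. The neutrophil chemokine Cxcl2 was 3.65 CPM in members, against 306 and 426 after LNP-CRISPR, and 3.79 CPM, against 46.6 and 83.0, after vehicle. Of 22 interferon-response genes, 19 were lower and 1, Bst2, higher than in stem cells, and of 22 immediate early genes 18 were lower and 1, Klf2, higher. Against cycling cells the immediate early list had no common direction, 7 of 22 higher and 3, Fosl1, Ier5 and Nr4a2, lower.

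Members varied widely in how much of their RNA was contractile. The embryonic and mature sarcomere lists together took 0.274% to 17.1% of nuclear-encoded UMIs per cell after LNP-CRISPR (median 1.28%) and 0.252% to 18.8% after vehicle (median 1.19%). The cells of each library were divided at their median into an upper and a lower group, of 34 and 35 cells after LNP-CRISPR and 31 and 32 cells after vehicle. The upper cells held more UMIs, a median of 66851.5 against 23669 after LNP-CRISPR and 36439 against 20968 after vehicle. The split is a description, and the part of depth was not tested. Of 7651 genes outside the split lists with enough UMIs, 27.9% were higher in the upper group in both libraries and 40.8% lower.

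Mymx followed the split more than Mymk did. Mymx was 890 CPM in the upper and 193 in the lower group after LNP-CRISPR, a ratio of 4.62 (4.01 to 5.35), and 654 CPM in the upper and 112 in the lower group after vehicle, a ratio of 5.82 (4.74 to 7.2). Mymk was 945 CPM in the upper and 520 in the lower group after LNP-CRISPR, a ratio of 1.82 (1.66 to 2.0), and 853 and 373 CPM after vehicle, a ratio of 2.29 (2.03 to 2.58). In each library the intervals of the 2 genes did not overlap, but they do not cover the spread between cells. By cells, Mymx was found in 31 of 34 upper and 17 of 35 lower cells after LNP-CRISPR and in 28 of 31 and 19 of 32 after vehicle.

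Other genes were also far higher in the upper group. Mef2c was 340 CPM in the upper and 26.3 in the lower group after LNP-CRISPR, and 505 and 10.9 CPM after vehicle, where 1 upper cell held 357 of 745 UMIs. Trdn, triadin of the calcium release unit, was 64.4 CPM in upper cells after LNP-CRISPR and 184 CPM after vehicle, and had no UMI in the lower cells of either library; 1 vehicle cell held 124 of 268 UMIs. Chrng was 245 CPM in the upper and 60.0 in the lower group after LNP-CRISPR and 209 and 33.8 CPM after vehicle. All 19 measured excitation-contraction genes were higher in the upper group in both libraries.

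Myog, which chose all members, was 3027 CPM in the upper and 2678 in the lower group after LNP-CRISPR and 3323 and 2307 CPM after vehicle. The CDK inhibitors parted. Cdkn1a was 2.35-fold higher in the upper group after LNP-CRISPR and 3.60-fold higher after vehicle. Cdkn1c was 3152 CPM in the upper and 7958 CPM in the lower group after LNP-CRISPR, a ratio of 0.396, and 5784 and 5890 CPM after vehicle, a ratio of 0.982, so the libraries differed. Genes lowest in the upper group included the AP-1 factor gene Fosb, at 22.4 against 143 CPM after LNP-CRISPR and 74.9 against 262 CPM after vehicle. Clip3, a microtubule-associated gene, was 10.0 against 84.5 CPM after LNP-CRISPR and 24.7 against 125 CPM after vehicle. Megf10 was 45.2 against 155 CPM after LNP-CRISPR and 59.7 against 195 CPM after vehicle. Of 15 cell cycle genes 13 were lower in the upper group in both libraries and 0 higher. All members passed the cycle limit, but it is a raw count of at most 2 UMIs. It is therefore stricter per UMI in the upper cells, which held more UMIs, and its part in this difference was not tested.

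**Figure D3:**
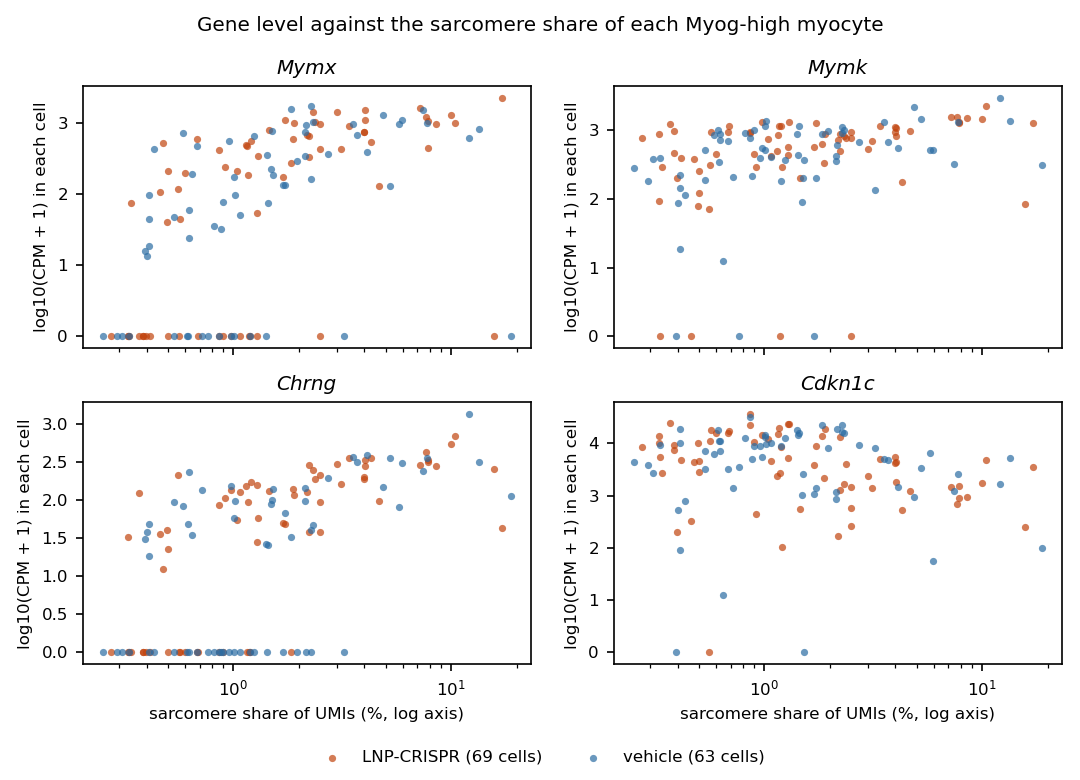
Mymx, Mymk, Chrng and Cdkn1c per cell, as log10(CPM + 1), against the share of a cell's nuclear UMIs in sarcomere genes, on a log axis, with points coloured by library. Mymx and Chrng are at 0 in many cells at the low end and present in nearly all at the high end, whereas Mymk is present across the range.

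Myod1, Myh3, Mymk and Tnnt2 differed by less than 1.5-fold between members after LNP-CRISPR and after vehicle. Of 8821 genes with at least 30 UMIs over both libraries, 5.74% were at least 1.5-fold higher in members after LNP-CRISPR and 6.58% lower. Myod1 (ratio 0.986, 0.893 to 1.09) and Myh3 (0.989, 0.934 to 1.05) had intervals spanning 1. The ratio of Myog, which chose the members, was 0.993 and is given as a description. Mymk was 803 CPM after LNP-CRISPR and 668 CPM after vehicle, a ratio of 1.20 (1.13 to 1.28). Tnnt2 was 1583 CPM after LNP-CRISPR and 1356 CPM after vehicle, a ratio of 1.17 (1.12 to 1.22). Mymx was highest of these, at 0, 271 and 2270 CPM per cell after LNP-CRISPR, against 0, 133 and 1764 CPM after vehicle. Its summed ratio was 1.48 (1.37 to 1.59), within cell ranges that overlap almost wholly. An other-class filter dropped members with at least 3 UMIs of counted markers of another class. It left 17 cells after LNP-CRISPR and 17 after vehicle. The filter counted only part of the other-class markers, without the full mural and adult fibre lists. At least 3 mural UMIs were held by 66 LNP-CRISPR and 61 vehicle members, and at least 3 adult fibre UMIs by every member. With the cells left by this filter the Mymx ratio was 0.798 and the Tnnt2 ratio 0.809. Of 25 fusion genes 0 were 1.5-fold higher and 1, the integrin gene Itga9 with 13 UMIs after LNP-CRISPR and 18 after vehicle, lower, with a median log2 ratio of -0.00, beside 0.00 over all genes.

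Cell cycle exit and disease genes were similarly placed. Cdkn1a was 929 CPM after LNP-CRISPR and 732 CPM after vehicle, a ratio of 1.27 (1.20 to 1.35). With the 17 cells per library left by the other-class filter it was 0.929. Cdkn1c was 4760 CPM after LNP-CRISPR and 5825 CPM after vehicle, a ratio of 0.817 (0.799 to 0.836). The Cdkn1c ratio was 1.24 with the 17 cells per library left by that filter. It was 1.36 when the filter did not count Ncam1 and Cldn5, so its direction was not stable. Dmd rested on 81 UMIs in each library and its ratio was 0.721 (0.523 to 0.994), or 1.11 with members taken from 5 Myog UMIs. Utrn was 0.943 (0.790 to 1.13). None of the 9 neuromuscular genes passed 1.5-fold, and their median log2 ratio was 0.24.

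Mature fibre genes appeared lower after LNP-CRISPR, but 1 vehicle cell carried much of that. In the mature sarcomere list 1 of 29 genes was higher and 9 lower, in excitation-contraction coupling 0 of 19 were higher and 7 lower, and in metabolism 0 of 12 were higher and 5 lower, with a median log2 ratio of -0.62. That vehicle cell held 307 of the 317 myoglobin (Mb) UMIs of all vehicle members, 522 of 922 Myh1, 231 of 244 Tcap and 227 of 284 Pvalb, with 55 Myog and 22 Mymk UMIs. A different vehicle cell held 390 of 429 UMIs of sarcolipin, Sln. When the cell with the most UMIs of each gene was left out of each library, 6.43% of 8378 genes were higher and 5.65% lower. The mature sarcomere list then had 4 higher and 5 lower, excitation-contraction coupling 0 higher and 2 lower, and metabolism none of 10 in either direction. The Myh1 ratio, 0.489, was 1.09 without the Mb-rich cell, and Tcap was 0.0946 with it and 1.72 without it.

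Cardiac-type troponin C, Tnnc1, was 297 CPM after LNP-CRISPR and 107 CPM after vehicle, a ratio of 2.78 (2.42 to 3.21). It was found in 24 of 69 LNP-CRISPR and 13 of 63 vehicle members. Under the other-class filter with Ncam1 and Cldn5 not counted the Tnnc1 ratio was 1.27. It was 2.27-fold higher after LNP-CRISPR in cycling cells as well, and 2.85-fold higher in glial cells. Xirp2, an actin-binding repeat protein of stressed muscle, was 104 CPM after LNP-CRISPR and 26.5 CPM after vehicle, a ratio of 3.91 (2.98 to 5.21). It was found in only 13 of 69 LNP-CRISPR and 7 of 63 vehicle members. A single cell held 171 of 342 UMIs after LNP-CRISPR and 33 of 63 after vehicle. The Xirp2 ratio was 4.14 (2.80 to 6.32) without those cells, but 0.934 among members with no cell cycle UMI. Haemoglobin Hba-a1, among the 8 highest once the highest cell of each library was left out, had 74 UMIs in members after LNP-CRISPR and 2 after vehicle. It was found in 10 of 69 LNP-CRISPR and 2 of 63 vehicle members, and 1 LNP-CRISPR cell held 35 of the 74. Cycling cells ran the other way, with 14 Hba-a1 UMIs after LNP-CRISPR and 79 after vehicle, a ratio of 0.134. The glycoprotein Tnc (tenascin C) was 19.8 CPM after LNP-CRISPR and 61.1 CPM after vehicle, a ratio of 0.323. With the 17 cells per library left by the other-class filter the Tnc ratio was 1.13. In cycling and stem cells Tnc was 1.54-fold higher after LNP-CRISPR in both. Imprinted Mest and Grb10, growth regulators of fetal muscle, were lower in members after LNP-CRISPR, with ratios of 0.590 (0.525 to 0.663) for Mest and 0.690 (0.623 to 0.764) for Grb10, although Mest was 1.02 with no cell cycle limit.

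**Figure D4:**
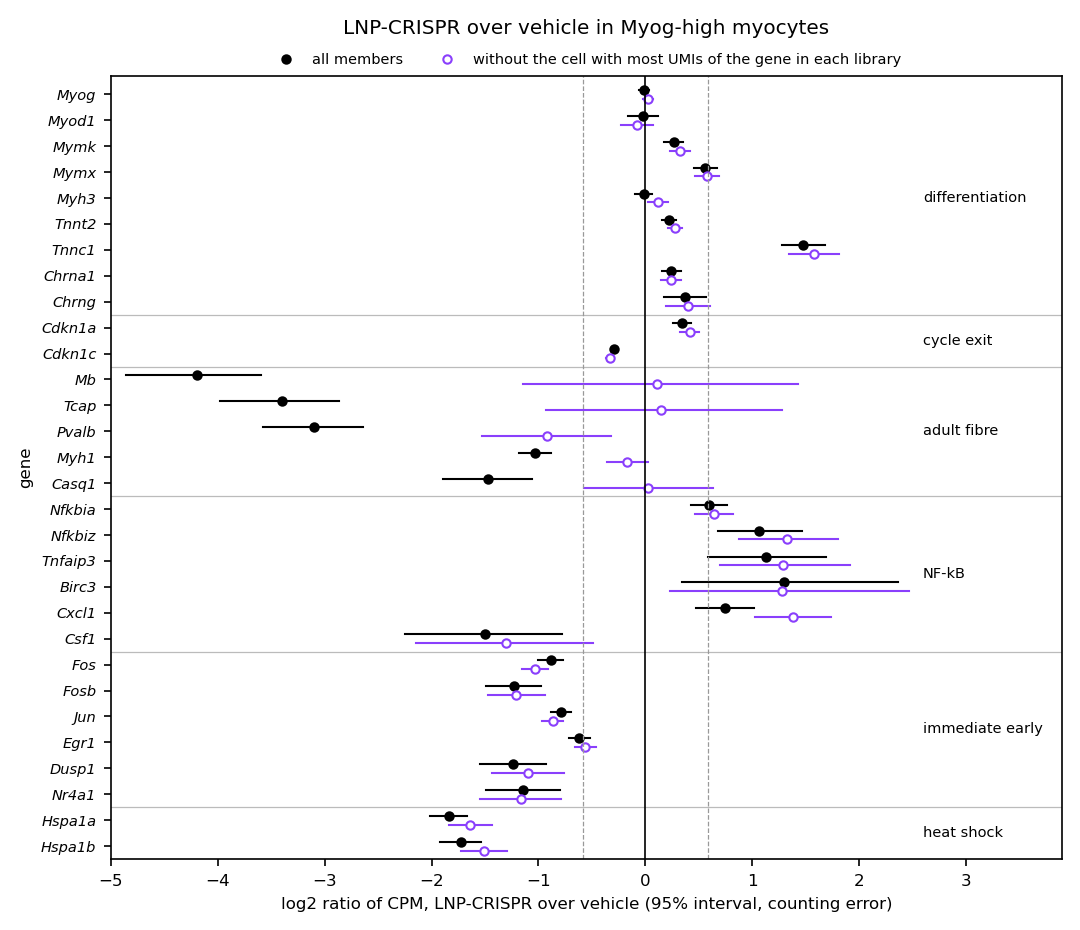
Log2 ratio of LNP-CRISPR over vehicle in members, with 95% counting intervals, for all members (black) and without the highest cell of each library (open purple). Dashed lines mark 1.5-fold. Myog, Myh3 and Myod1 lie close to 0, NF-kB genes other than Csf1 lie to the right and immediate early genes to the left.

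NF-kB genes were higher in members after LNP-CRISPR. Of 16 measured, 8 were at least 1.5-fold higher and 1 lower, with a median log2 ratio of 0.48 and 15 of 17 above 0. Without the highest cells 7 of 15 were higher and 1 lower. Nfkbia per cell was 0, 145 and 799 CPM after LNP-CRISPR, against 0, 75.6 and 803 CPM after vehicle, so the cells overlapped over the whole range. Its summed ratio was 1.51 (1.35 to 1.70). The atypical regulator Nfkbiz was 65.3 CPM after LNP-CRISPR and 31.2 CPM after vehicle, a ratio of 2.10 (1.6 to 2.77). The feedback inhibitor Tnfaip3 (known as the deubiquitinase of this pathway) was 35.0 CPM after LNP-CRISPR and 16 CPM after vehicle, a ratio of 2.18 (1.5 to 3.24). Csf1, a macrophage growth factor, was the exception at 0.354 (0.210 to 0.581), and Il6 rested on 1 cell with 22 of its 27 UMIs after LNP-CRISPR.

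The same genes differed in other cell sets of the libraries. Nfkbia was 2.17-fold higher after LNP-CRISPR in cycling, 1.55-fold in stem and 1.84-fold in glial cells. Cxcl1, a chemokine gene, was 1.68-fold (1.39 to 2.03) higher in members, against 2.87-fold in cycling and 2.22-fold in stem cells. Its ratio in members was 2.6 without the highest cell of each library and 13.5 among members with no cell cycle UMI. Cxcl2 was 6.56-fold (6.01 to 7.17) higher in cycling and 5.13-fold (4.45 to 5.94) higher in stem cells after LNP-CRISPR. In members Cxcl2 had 12 UMIs after LNP-CRISPR and 9 after vehicle, a ratio of 0.962 (0.372 to 2.58). That upper bound lay below the lower bounds in those sets. However, the members' counts were under the limit of 30 UMIs, and the intervals do not cover the spread between cells. No difference between the sets is drawn from them.

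Immediate early genes were lower in members after LNP-CRISPR, 9 of 22 past 1.5-fold and 1 (Nr4a2, 22 UMIs after LNP-CRISPR and 9 after vehicle) higher, with a median log2 ratio of -0.41. Without the highest cells 8 of 21 were lower and 0 higher. Fos, an AP-1 subunit, was 0, 129 and 8015 CPM per cell after LNP-CRISPR, against 0, 268 and 6432 CPM after vehicle. Its summed levels were 325 CPM after LNP-CRISPR and 600 CPM after vehicle, a ratio of 0.541 (0.50 to 0.586). With the 17 cells per library left by the other-class filter the Fos ratio was 0.927. Jun, the partner of Fos, was 506 CPM after LNP-CRISPR and 874 CPM after vehicle, a ratio of 0.579 (0.543 to 0.618). Stem cells gave 0.598 for Fos and 0.644 for Jun, whereas cycling cells gave 1.14 and 0.985 and glial cells 1.23 and 1.15.

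Hspa1a and Hspa1b, inducible HSP70 genes, were among the 8 lowest ratios. Hspa1a was 117 CPM after LNP-CRISPR and 418 CPM after vehicle, a ratio of 0.280 (0.248 to 0.315). It was 0.628 with the 17 cells per library left by the other-class filter. Hspa1b was 95.4 CPM after LNP-CRISPR and 316 CPM after vehicle, a ratio of 0.302 (0.264 to 0.345), and 0.709 with those cells. The Hspa1a ratios in other sets were 0.556 in cycling, 0.510 in stem and 0.449 in glial cells, so the gene was lower after LNP-CRISPR in all 4 sets.

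**Figure D5:**
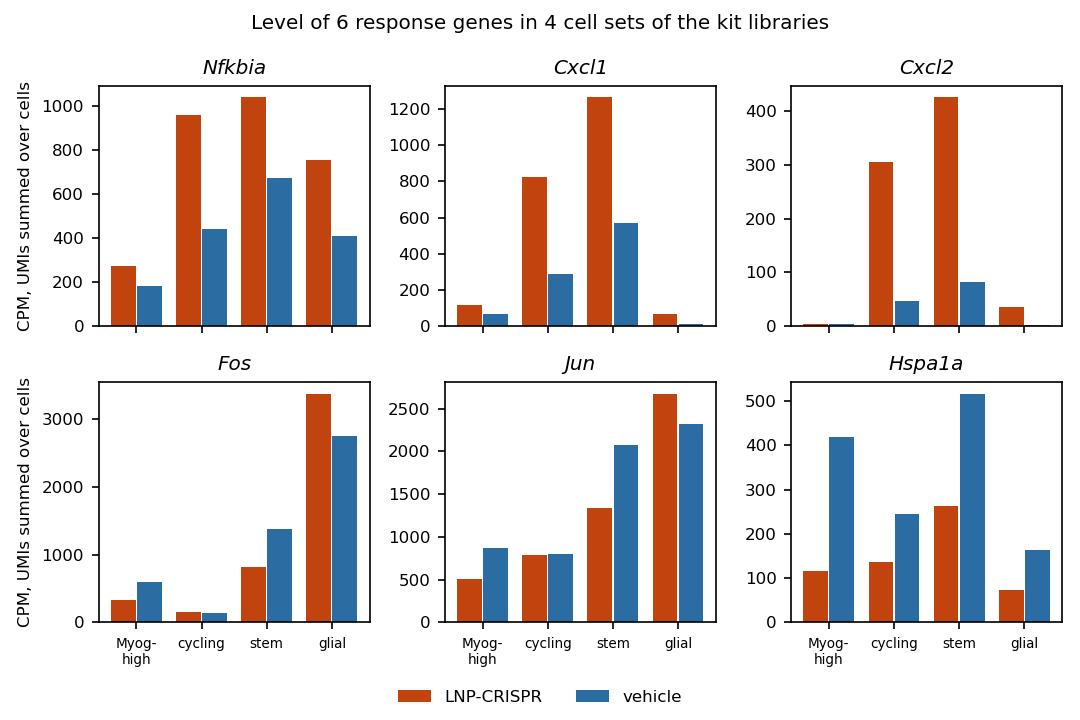
Levels in CPM of Nfkbia, Cxcl1, Cxcl2, Fos, Jun and Hspa1a in 4 cell sets, LNP-CRISPR left of vehicle; bars are sums over cells of 1 library, so they have no error bars. Nfkbia and Cxcl1 are higher after LNP-CRISPR in each set, Cxcl2 is near 0 in members, and Hspa1a is lower after LNP-CRISPR in each set.

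Other response lists were smaller. Of 21 p53 target genes 4 (Aen, Ccng1, Tnfrsf10b and Fas) were higher and 0 lower after LNP-CRISPR, with a median log2 ratio of 0.21. Plk2, a polo-like kinase of that list, was 232 CPM after LNP-CRISPR and 164 CPM after vehicle, a ratio of 1.41 (1.25 to 1.6). Of 13 interferon genes 4 (Ddx58, Isg15, Cxcl10 and Ifi35) were higher and 0 lower, with a median log2 ratio of -0.04. The 3 most abundant, Ifitm3, Ifi27 and B2m, had ratios of 1.27, 0.680 and 0.952. Over all 8821 genes 5.74% were higher and 6.58% lower. Several counts were small. After LNP-CRISPR and after vehicle Ddx58 had 24 and 7 UMIs, Isg15 32 and 10, Cxcl10 46 and 15, and Ifi35 34 and 16. After LNP-CRISPR 1 cell held 17 of the Isg15 UMIs and 1 cell 18 of the Cxcl10 UMIs. Fas had 35 and 10, Tnfrsf10b 36 and 14, Aen 138 and 62, and Ccng1 257 and 112.

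The added Cas9 feature showed where the editor's RNA was counted. Members after LNP-CRISPR held 560 Cas9 UMIs, 170 CPM (156 to 185), against 0 UMIs in vehicle members, where 3 UMIs would have been 1.26 CPM. At least 1 Cas9 UMI was found in 26 of 69 members (37.7%, 26.3 to 50.2) and at least 4 in 10 (14.5%, 7.17 to 25). In vehicle 0 of 63 members held a Cas9 UMI, which allows a share of cells with a UMI of up to 4.76%, taking 3 cells as the limit. The 3 members richest in Cas9 held 210, 109 and 98 UMIs, 74.5% of the total, and the level without the first was 110 CPM.

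Cas9 was 170 CPM in members, against 339 CPM in cycling, 80.0 CPM in stem and 24.1 CPM in glial cells of the same library. Without the 3 highest cells of each set it was 47.8 CPM in members, 241 CPM in cycling, 52.9 CPM in stem and 19.4 CPM in glial cells, so the members' place above stem cells rested on 3 cells. Thinned to 5000 UMIs, a Cas9 UMI was found in 17.4% of members, 20.4% of cycling cells, 16.3% of stem cells and 9.45% of glial cells. Unthinned, 12.2% of glial cells held a UMI, at a median depth of 7598 UMIs against 32228 in members. The labels do not say whether glial cells were reached by the particles, so their share is not a pure background.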

How the data were processed

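Cells came from 4 single-cell libraries of mouse skeletal muscle, made with 10x Chromium 3' chemistry per the labels. The authors deposited 1 matrix per library of raw UMI counts for every gene in every barcode. Cell Ranger is given as 5.0.1 per the file headers and as 7.0.1, with the build mm10, per the submitters' processing notes. Cas9 is a feature added to the 32286 features.

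Kept barcodes had 200 genes or more and a mitochondrial share of 20% or less. This left out 300 barcodes of the LNP-CRISPR kit library and 272 of the vehicle kit library. No doublet caller was run. Members, comparison sets and the 17 gene lists were chosen with earlier results of these data known. UMIs were summed per set and library and divided by 1000000 nuclear-encoded UMIs. Ratios carry exact conditional binomial intervals, levels exact Poisson intervals and shares exact Clopper-Pearson intervals, at 95%. Ratios needed at least 30 UMIs over both libraries and list medians at least 20 per gene, with a pseudocount of 0.5 UMIs. Only the ratio step was tested on simulated data. These were pooled Poisson counts with known ratios and no variation between cells. Named genes were a fixed set, the most abundant of each list, list genes past 1.5-fold with an interval excluding 1, and the 8 highest and 8 lowest after leaving out the highest cell per library. Other list genes named were chosen after their values were seen, and some genes are not reported here. Alternatives changed the rule's limits, filters, weighting and depth. Gene positions of promoters are RefSeq GRCm38.p6. Python 3.11.15, numpy 2.4.6, scipy 1.17.1 and pandas 2.3.3 were used.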

Additional observations from a re-analysis of the deposited data

How the results depend on the processing

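The share of members among kept cells stayed within its interval in 9 alternatives, with LNP-CRISPR over vehicle ratios of 0.684 to 0.997. Of the ratios of single genes recomputed under up to 13 settings, 126 of 1420 crossed 1, at least 1 time for 55 of 120 genes. Of these, 33 belonged to genes past 1.5-fold with an interval that excludes 1, and 93 to the others. The others include Mymx 0.798, Tnnt2 0.809, Cdkn1a 0.929 and Cdkn1c 1.24 with the 17 LNP-CRISPR and 17 vehicle members left by the other-class filter. Cdkn1c was also 1.36 with Ncam1 and Cldn5 not counted, and Dmd 1.11 at 5 Myog UMIs. The list median of NF-kB genes was 0.19 to 0.66 over the alternatives and that of immediate early genes -0.60 to -0.27.

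Genes past 1.5-fold were 982 higher and 1181 lower of 10930 with at least 10 UMIs, and 159 and 164 of 5721 with at least 100. They were 302 lower of 4857 after thinning to 10000 UMIs and 314 lower of 3121 under the other-class filter. With each cell weighing the same 882 were higher. Cas9 was 90.4 CPM in members with no cell cycle UMI, 101 with no cell cycle limit and 155 under the other-class filter. It was 155 with each cell weighing the same, 110 without the highest cell and 134 after thinning. In the 37 LNP-CRISPR members left by the filter when Ncam1 and Cldn5 were not counted it was 281.

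Among genes past 1.5-fold the 33 changes of direction were these, and the cause was not tested. With each cell weighing the same: Myh8 1.01, Cacna1s 1.16, Cacna2d1 1.0, Trdn 1.13, Pfkm 1.05 and Egr1 1.01. After thinning: Myh8 1.06, Cacna2d1 1.23, Trdn 1.18 and Mrln 1.03. At 5 Myog UMIs: Myh4 18.2, Pvalb 1.42, Casq1 1.05, Ckm 1.36 and Pygm 1.07. At 10% mitochondrial UMIs: Myh1 1.11, Tcap 1.26, Casq1 1.20, Ckm 1.04 and Mb 1.76. Under the other-class filter: Tnc 1.13, Egr1 1.48 and Ier2 1.15, and with Ncam1 and Cldn5 not counted Sln 1.54. With no cell cycle UMI: Xirp2 0.934 and Sln 1.48, and with no cycle limit Mest 1.02. Without the highest cell: Tcap 1.11 and Casq1 1.02. Without the Mb-rich cell: Myh1 1.09, Tcap 1.72, Casq1 1.25 and Mb 1.68. The last setting and the one on Ncam1 and Cldn5 were chosen after seeing the data.

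No paired analysis was possible because each group was 1 library, and a replicate number only names it. For the same reason leaving out a library left nothing to compare. Genes under 30 UMIs in members were below what this depth can compare.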

Other observations

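Imprinted genes, many of which restrain or promote growth in fetal muscle, differed from one another in members. The noncoding RNA H19 was 550 CPM in members, against 83.4 in cycling and 137 in stem cells after LNP-CRISPR, and 520 CPM, against 125 and 143, after vehicle. Within members H19 was 768 CPM in the upper and 116 CPM in the lower sarcomere group after LNP-CRISPR, and 813 and 54.5 CPM after vehicle. Meg3, another noncoding RNA, was 104 CPM in members, against 31.6 in cycling and 957 in stem cells after LNP-CRISPR, and 141 CPM, against 27.6 and 1111, after vehicle. Within members it was 40.2 CPM in the upper and 230 CPM in the lower group after LNP-CRISPR, and 116 and 180 CPM after vehicle, so H19 and Meg3 ran in opposite directions along the sarcomere share. Of 12 imprinted genes 1 was higher and 6 lower than in stem cells.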
